A study of Mus musculus with 2 samples.

Results

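The genes described here are Dppa5a and Ooep on chromosome 9 and Dppa4 and Dppa2 on chromosome 16, chosen by name. Their loci were described by every POU5F1 peak whose centre lay within 50 kb of one of their transcript starts in 5 deposited peak lists. These are 4 of 22225 protein-coding genes on the mm9 build. POU5F1, also called OCT4, was mapped by chromatin immunoprecipitation followed by sequencing (ChIP-seq) in E14TG2a.4. This line of mouse embryonic stem cells is male, of strain 129/Ola, and labelled with an age of 3.5 days. The labels give 1 group of 2 biological replicates and name no treatment, so no groups could be compared and no test was made. Of the whole-series mm9 list, 4 of 5515 peaks lay near Dppa5a and Ooep and 0 near Dppa2 and Dppa4. In that list 27.3% of protein-coding genes had at least 1 peak within 50 kb and 0.427% had at least 4. Because these peaks were known when the genes were chosen, such shares are given as a description. The lists hold peaks and no expression values, so the labelled cell type was not checked with marker genes.

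POU5F1 is a POU-domain transcription factor of the inner cell mass and embryonic stem cells, often bound beside SOX2 at composite elements that join a SOX motif to an octamer. Dppa5a, also called Esg1, and Ooep, also called Floped, encode small proteins with a KH domain, a fold that binds RNA in many proteins. DPPA5A is known as a marker of pluripotent cells and OOEP as a subunit of the subcortical maternal complex of the oocyte and early embryo. Dppa2 and Dppa4 encode SAP-domain proteins that bind DNA as partners. They are known for keeping promoters of developmental genes poised and for acting upstream of Dux and the genes switched on at zygotic genome activation.

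On mm9, Dppa5a (ENSMUSG00000060461.5) spans chr9:78214859-78215984 and Ooep (ENSMUSG00000032346.7) chr9:78223916-78226532, both on the minus strand with starts 10.5 kb apart. Dppa4 (ENSMUSG00000058550.7) spans chr16:48283848-48294405 and Dppa2 (ENSMUSG00000072419.4) chr16:48310590-48319836, both on the plus strand with starts 26.7 kb apart. Both pairs are thus neighbours transcribed in the same direction. In the whole-series list the 4 peaks near Dppa5a lay around the gene in a span of 9.23 kb, all between annotated genes. A far downstream peak (chr9:78208261-78208666) and a near downstream peak (chr9:78212546-78213053) were centred 7.52 kb and 3.18 kb past the Dppa5a start. Their nearer edges lay 6192 bp and 1805 bp beyond the end of the gene. A proximal upstream peak (chr9:78216492-78216915) and a distal upstream peak (chr9:78217160-78217491) were centred 720 bp and 1342 bp before the start, with a gap of 244 bp between them.

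The mm9 reference sequence around the centres of the 2 upstream peaks is shown because they lie nearest to the Dppa5a start and differ in their match to the POU5F1 composite element, as described below. Each is 300 bases on the plus strand. The sequence is that of the reference genome, not of the 129/Ola cells. Capitals mark composite matches with up to 3 mismatches and octamer matches with up to 1, on either strand, and the distal upstream window holds neither.
Dppa5a proximal upstream peak, chr9:78216554-78216853: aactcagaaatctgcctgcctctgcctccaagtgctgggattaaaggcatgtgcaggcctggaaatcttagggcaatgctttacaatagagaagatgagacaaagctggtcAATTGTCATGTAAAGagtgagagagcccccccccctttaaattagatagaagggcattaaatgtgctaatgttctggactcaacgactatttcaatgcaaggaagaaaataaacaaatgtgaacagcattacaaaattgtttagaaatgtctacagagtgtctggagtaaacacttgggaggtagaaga
Dppa5a distal upstream peak, chr9:78217176-78217475: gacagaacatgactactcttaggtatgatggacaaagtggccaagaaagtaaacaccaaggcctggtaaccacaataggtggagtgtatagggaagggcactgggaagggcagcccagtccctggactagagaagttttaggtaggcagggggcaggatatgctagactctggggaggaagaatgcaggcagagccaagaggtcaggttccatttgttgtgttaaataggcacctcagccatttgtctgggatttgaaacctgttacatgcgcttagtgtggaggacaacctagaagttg

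The near downstream peak was the strongest at Dppa5a in the whole-series and replicate 2 mm9 lists. In the replicate 1 mm9 list it was the only peak at Dppa5a. The signal is the value of that name that the authors deposited for each peak. Its scaling is not stated, so levels were set side by side only within a list. In the whole-series list the signals in order along transcription were 4.99 at the distal upstream peak, 7.64 at the proximal upstream peak, 10.28 at the near downstream peak and 7.34 at the far downstream peak. The near downstream peak ranked 351 of 5515, within the top 6.36%. The proximal upstream and far downstream peaks ranked 978 and 1095. The distal upstream peak, at rank 3324, lay in the weaker part of the list. The deposited −log10 p-values were 7.575, 23.442, 35.95 and 18.302 in the same order. The widths were 332, 424, 508 and 406 bp, against a list median of 367 bp, and 13.4% of all peaks were as wide as the near downstream peak.

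The near downstream site was listed in both replicates, but the number of peaks differed between them. In the replicate 2 list all 4 sites were present, with signals of 6.80 at the distal upstream, 13.6 at the proximal upstream, 16.63 at the near downstream and 12.09 at the far downstream peak. Their ranks were 4994, 757, 399 and 1108 of 6324. In the replicate 1 list only the near downstream peak was present, with a signal of 6.84, −log10 p of 8.768 and a q-value of 0.0077. It ranked 665 of 1330, in the middle of that list. So 1 of the 4 whole-series peaks overlapped a peak of both replicate lists by at least 1 bp, and the other 3 overlapped one of replicate 2 alone. Of all protein-coding genes, 8.16% had at least 1 replicate 1 peak within 50 kb, 30.1% had at least 1 replicate 2 peak and 0.544% at least 4. The replicate 1 list holds far fewer peaks, so absence from it was not read as absence of binding. A peak as high as the strongest at Dppa5a lay near 2.44% of genes in the whole-series list, 5.33% in replicate 1 and 2.78% in replicate 2.

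**Figure D1:**
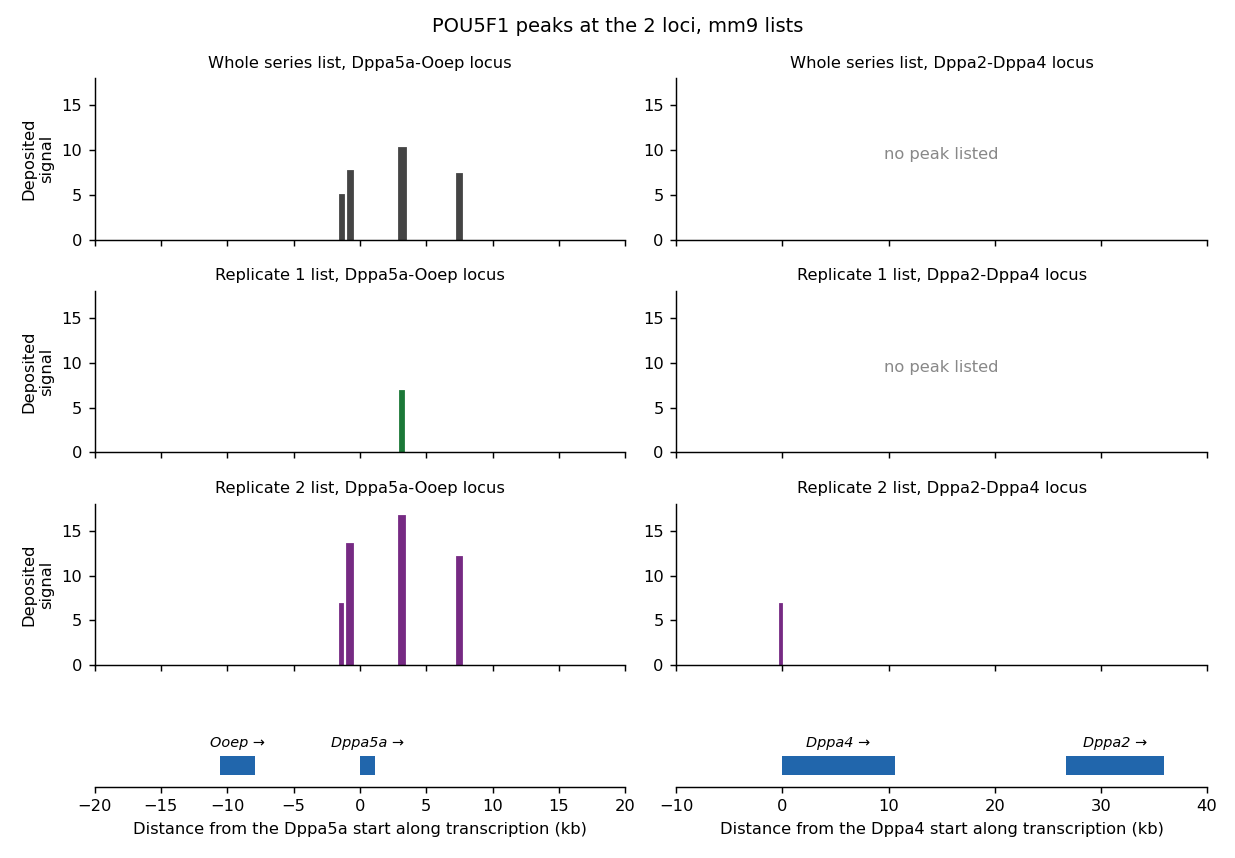
Peaks at the Dppa5a-Ooep locus (left) and the Dppa2-Dppa4 locus (right) in the 3 mm9 lists. The horizontal axis is the distance in kb from the Dppa5a or Dppa4 start along transcription, bars span each peak, their height is the deposited signal (not comparable between lists), and blue boxes are the genes. The near downstream peak of Dppa5a is the tallest in the whole-series and replicate 2 lists, at 10.28 and 16.63, and the only peak in replicate 1, at 6.84. The Dppa4 start carries 1 peak, of 6.80, in replicate 2.

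On mm10, 3 of these sites were listed. The optimal list, which holds the peaks kept by an irreproducible discovery rate (IDR) procedure that scores how well ranked peaks repeat, gave 3 peaks within 50 kb of Dppa5a and Ooep, and the conservative list gave the same 3. They lay at chr9:78360461-78360796, chr9:78364846-78365181 and chr9:78368725-78369060, centred 7.57 kb and 3.19 kb past the Dppa5a start and 694 bp before it. Coordinates were not converted between builds, but these distances differ by at most 50 bp from those of the far downstream, near downstream and proximal upstream mm9 peaks. Their signals in the optimal list were 47.2, 61.8 and 39.1, which ranked 1257, 697 and 1834 of 3994. Of all protein-coding genes, 18.9% had at least 1 optimal peak and 0.730% at least 3, and in the conservative list the shares were 13.3% and 0.332%. The IDR scores were 1000 each in the optimal list, and 1000, 1000 and 935 in the conservative list.

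The relaxed mm10 lists, which hold 300000 entries of peaks and background for each replicate, gave a value for these 3 sites in both replicates. In replicate 1 the signals were 13.9 at the far downstream, 25.7 at the near downstream and 12.8 at the upstream site, with ranks of 2542, 406 and 4147. In replicate 2 they were 32.8, 40.2 and 28.1, with ranks of 1220, 798 and 1654. The order of the 3 sites was thus the same in both replicates. The near downstream site had 2.01 times the signal of the upstream site in replicate 1 and 1.43 times in replicate 2, and 1.84 and 1.23 times that of the far downstream site. The far downstream and upstream sites differed by less, 1.09 times in replicate 1 and 1.17 times in replicate 2, and on mm9 their order was reversed. Their order was therefore not stable, while the near downstream site came first in each list of either build, though alone in the mm9 replicate 1 list. All these lists come from the same 2 replicates, and the optimal, conservative and pooled lists carry the same signals. They are therefore not independent observations.

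No replicated counterpart of the distal upstream peak was found on mm10. Replicate 2 had an entry 1.45 kb before the Dppa5a start, with a signal of 9.95 and rank 23559, and replicate 1 and the pooled list had none between the upstream site and 2 kb. Further entries near the genes also differed between replicates. An entry 2.10 kb past the Dppa5a start ranked 4875 in replicate 1 and 44547 in replicate 2. One 3.40 kb before the Dppa5a start ranked 5637 in replicate 2 and was not listed in replicate 1. One 4.11 kb past the Ooep start ranked 4317 in replicate 1 and was not listed in replicate 2. These 3 sites, named after their values had been seen, were not in either IDR list. As they were not kept for repeating well, their differences between replicates follow in part from that.

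**Figure D2:**
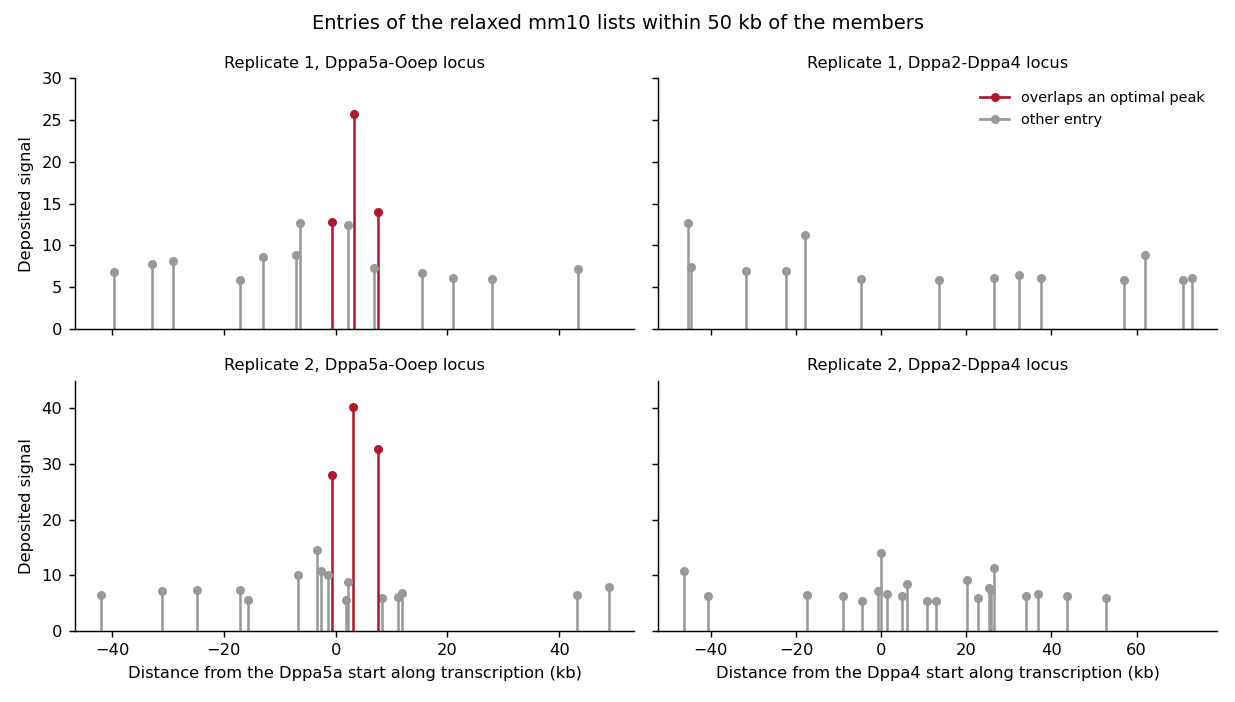
Every entry of the relaxed mm10 lists within 50 kb of a member start, for replicate 1 (top) and replicate 2 (bottom). The horizontal axis is the distance in kb from the Dppa5a or Dppa4 start along transcription, the vertical axis the deposited signal, and red marks entries that overlap an optimal peak. At Dppa5a the 3 red entries reach 12.8 to 25.7 in replicate 1 and 28.1 to 40.2 in replicate 2. The other entries at Dppa5a and Ooep reach at most 12.7 in replicate 1 and 14.6 in replicate 2. No entry at Dppa2 and Dppa4 exceeds 12.7 in replicate 1 or 14.04 in replicate 2.

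Ooep had no peak of its own. All 4 whole-series peaks counted for it are those of Dppa5a, centred 9.21 to 18.1 kb past its start and so beyond its end. None of the 3 relaxed mm10 lists had an entry within 1 kb of the Ooep start, whereas 47.2% of protein-coding genes had one in the pooled list, 37.3% in replicate 1 and 47.0% in replicate 2. The RefSeq promoter of Ooep (GRCm38, chr9:78378539-78378838, the one promoter of the 4 genes in the table used) held none of the 4 POU elements described below. The composite was found in 0.213%, the octamer in 1.74%, MORE in 0.110% and PORE in 0.384% of all 32851 promoters of that length. Sharing peaks was not limited to Ooep. The same 4 peaks lay within 50 kb of starts of Gsta2, a glutathione S-transferase gene, Omt2b, Gm8074, Ddx43, a DEAD-box helicase gene, and 4930542C12Rik. These 5 genes are all of the other protein-coding genes with a start within 50 kb of the Dppa5a or Ooep start. The far downstream peak also lay within 50 kb of a start of Omt2a. The nearest protein-coding start to the far downstream peak belonged to a transcript of Gsta2, 4869 bp away, and that to the other 3 peaks was the start of Dppa5a.

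At Dppa2 and Dppa4 the whole-series list, the replicate 1 list, the optimal list and the conservative list had 0 peaks within 50 kb. The replicate 2 list had 1, at chr16:48283655-48283811, centred 115 bp before the Dppa4 start and 26.9 kb before that of Dppa2. It had a signal of 6.80, which ranked 4994 of 6324. Its −log10 p of 5.044 was close to the lowest in that list, 5.007, and ranked 6291, and its q-value was 0.1268. It was 157 bp wide. The distal upstream peak of Dppa5a in the same list had the same signal of 6.80 with −log10 p of 6.388 and a q-value of 0.037. No protein-coding start other than those of Dppa4 and Dppa2 lay within 50 kb of the Dppa4 peak.

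The relaxed mm10 lists held an entry at each of the 2 promoters, outside both IDR lists, and neither stood out in both replicates. At Dppa4 an entry 141 bp before the start had a signal of 14.04 and rank 6186 in replicate 2 and was not listed in replicate 1. At Dppa2 an entry centred 4 bp before the start had a signal of 11.4 and rank 12716 in replicate 2, and in replicate 1 an overlapping entry had 6.08 and rank 239786. The pooled list placed the Dppa2 entry at 8695 with a signal of 19.6 and the Dppa4 entry at 28805 with 15.4, so the order of the 2 promoters in replicate 2 was reversed in the pool. The deposited −log10 q at Dppa4 was 1.82 in replicate 2 and 0.299 in the pool. At Dppa2 it was 0.917 and 0.897. The strongest entry of replicate 1 near these genes was elsewhere, 45.3 kb before the Dppa4 start, with a signal of 12.7 and rank 4435, and replicate 2 did not list it.

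Entries within 1 kb of a start as high as that of Dppa2 were found for 3.48% of protein-coding genes in the pooled list, 32.1% in replicate 1 and 5.33% in replicate 2. For Dppa4 the shares were 10.2% in the pooled list and 2.23% in replicate 2. For Dppa5a they were 0.512%, 1.19% and 0.436%. Within 50 kb, 37.6% of genes had an entry as high as the best near Dppa2 and Dppa4 in the pooled list, against 3.85% for Dppa5a and Ooep. In replicate 1 the shares were 22.8% for Dppa4, 40.6% for Dppa2 and 2.31% for Dppa5a and Ooep, and in replicate 2 they were 27.6% for Dppa4 and Dppa2 and 4.37% for the other pair. These shares describe the lists. The difference between the loci was not tested.

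**Figure D3:**
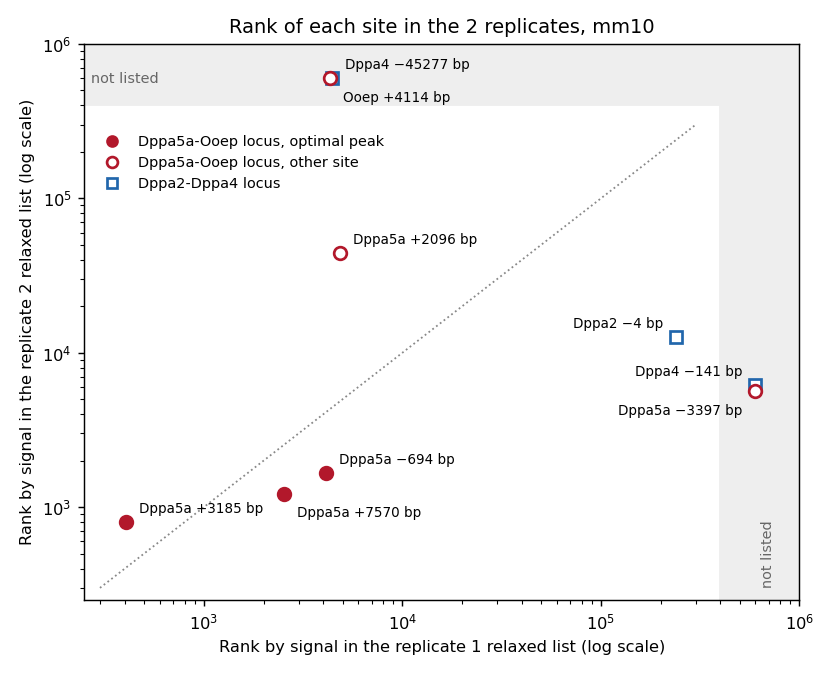
Rank by signal of each named mm10 site in the relaxed list of replicate 1 (horizontal, log scale) and replicate 2 (vertical, log scale). Labels give the distance from the named start, with a minus sign upstream, the dotted line marks equal ranks, and sites in the grey bands were not listed in that replicate. The 3 optimal peaks of Dppa5a rank 406 to 4147 in replicate 1 and 798 to 1654 in replicate 2. They were kept by a procedure that scores how well ranked peaks repeat, so their agreement follows in part from that choice. Each other site, at Dppa5a and Ooep as at Dppa2 and Dppa4, is unlisted or far lower in 1 replicate. That procedure kept none of these other sites, and some were named for a high rank in a single list. Their disagreement therefore also follows in part from the choice.

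Over all protein-coding genes, 16161 had 0 whole-series peaks, 4709 had 1, 1028 had 2, 232 had 3 and 72 had 4. At the edge of the rule nothing was close: the next whole-series peak beyond 50 kb lay 194 kb from Dppa5a, with a signal of 3.82, and 110 kb from Dppa2, with a signal of 4.99.

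**Figure D4:**
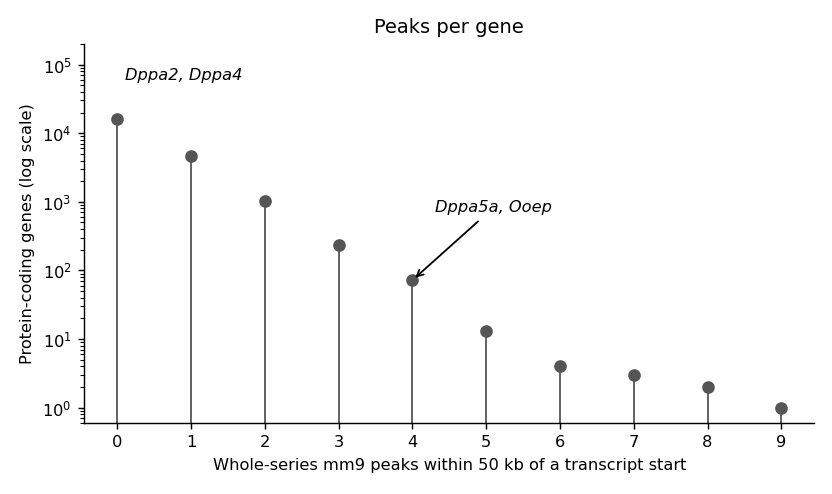
Number of protein-coding genes (vertical, log scale) by the number of whole-series mm9 peaks within 50 kb of a transcript start (horizontal). Dppa2 and Dppa4 are among the 16161 genes with 0 peaks, and Dppa5a and Ooep among the 72 with 4.

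The 4 Dppa5a peaks lay close together. Joining whole-series peaks whose centres lay within 5 kb of each other gave 5231 groups, of which 5 held 4 or more peaks. Joining within 10 kb gave 8 such groups. In replicate 2 the numbers were 5 and 12, and in replicate 1 the Dppa5a group was a single peak. In the mm10 optimal list 18 groups within 5 kb and 29 within 10 kb held at least the 3 peaks of Dppa5a, and in the conservative list 9 and 15. Of the other 4 whole-series groups within 5 kb, which were looked up after their number had been seen, 3 lay together on chromosome 6 between 114448947 and 114542214, nearest to Hrh1 and Atg7, and 1 lay nearest to Vmn1r238. Their strongest peaks had signals of 5.44 to 6.15 and ranked 2106 to 2839, against 351 at Dppa5a. The genes most like Dppa5a by number of peaks (4) and strongest signal were its neighbours Gsta2, Omt2b, Gm8074, Ddx43, 4930542C12Rik and Ooep, which share its peaks, and Cenpv and Ubb, which lie together on chromosome 11 and whose strongest peak also has a signal of 10.28. The 4 peaks of Cenpv and Ubb span 42.1 kb. Of the 65 other genes with exactly 4 peaks and none shared with Dppa5a, 0 had all 4 within 9.23 kb. Tighter groups did exist, since the whole-series group nearest to Vmn1r238 held 4 peaks in 4.19 kb. In replicate 2 the other groups within 5 kb of 4 or more peaks spanned 4.92, 5.48, 7.47 and 16.3 kb, against 9.15 kb at Dppa5a.

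None of the 4 Dppa5a peaks held a POU element under the strict rules. These rules were the composite with up to 2 mismatches, the exact octamer ATGCAAAT, the palindromic MORE element with up to 1 mismatch and the PORE element with up to 2, on both strands over the whole peak. The composite and PORE contain an octamer, so their matches can overlap its own. Over whole peaks, 24.0% of the 5515 whole-series peaks held at least 1 of the 4 elements, so most peaks held none. Within 150 bp of the centre the share was 23.3%, against 3.03% in windows 2 kb away. The Dppa4 peak of replicate 2 held none either.

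A composite match with 3 mismatches was present in 2 Dppa5a peaks, the proximal upstream and the far downstream one. In the proximal upstream peak, where capitals mark it in the sequence above, it read AATTGTCATGTAAAG at chr9:78216665-78216679 on the plus strand, 32 bp from the centre. Its substitutions were C1A, C11T and T15G, the element's base first and positions counted from the element's first base. A composite match with up to 3 mismatches was present within 150 bp of the centre in 30.2% of all whole-series peaks and in 1.90% of windows 2 kb away. 

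The strongest peak, near downstream, had a best composite match with 4 mismatches. It was the only one of the 4 with octamers of 1 mismatch, of which it held 2, and 61.4% of all whole-series peaks held at least 1 over the whole peak. In the distal upstream peak the best composite match had 5 mismatches and the best octamers 2. In the Dppa4 peak the best composite match had 4. The GC content of the 300-base windows was 41.3% at the proximal and 49.3% at the distal upstream peak, against a median of 46% over all peaks. A match names letters in the reference and not a bound site.

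Counts for genes of related families and pathways stand beside the 27.3% of all protein-coding genes near a whole-series peak, with a median of 0 peaks per gene. Of the other 4 KH-domain relatives, Khdc3, Khdc1a, Khdc1b and Khdc1c, 0 had a whole-series peak within 50 kb. In the subcortical maternal complex, 2 of the 7 members other than Ooep were near a peak. These were Nlrp5, an NLR-family protein gene, with a peak of signal 4.41 at 25.9 kb, and Tle6, a co-repressor family member, with one of 3.9 at 13.3 kb. Both had 1 replicate 2 peak and 0 replicate 1 peaks within 50 kb. Padi6, Nlrp2, Khdc3, Nlrp4f and Zbed3 had 0, and Zbed3 had 1 in the replicate 2 list alone.

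Among the other Dppa genes, Dppa1 had 0 peaks and Dppa3, a maternal factor that protects the maternal genome of the early embryo from loss of DNA methylation, had 2 in each of the 3 mm9 lists. The stronger, at chr6:122558386-122558870, had a signal of 12.33 and ranked 171, 17.8 kb from the Dppa3 start. Of 10 matched genes tied to zygotic activation, 2 were near a whole-series peak. These were Zscan4d, with a peak of signal 6.17 at 5.50 kb, and Zfp352, with one of 4.11 at 46.3 kb. Zscan4d had 1 replicate 1 peak and 0 replicate 2 peaks within 50 kb, and Zfp352 had 0 and 1. The −log10 p of the Zscan4d peak was 5.808, near the list minimum of 5.008. Zscan4c, Zscan4f, Dux, Tdpoz1, Tdpoz3, Tdpoz4, Usp17la and Usp17lc had 0, of which Tdpoz3 and Tdpoz4 had 1 in replicate 2. Several of these belong to families of near-identical copies, in which reads may not map to 1 copy, and no source used here says how such reads were treated. Of 13 germline genes silenced by DNA methylation in somatic cells, including Dazl, Ddx4, Mael and Sycp3, 0 were near a peak in any of the 3 mm9 lists.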

How the data were processed

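The data are POU5F1 peaks from 2 replicates of 1 cell line. The authors deposited mm9 peak lists for replicate 1 (1330 peaks), replicate 2 (6324) and the whole series (5515), and on mm10 relaxed lists for each replicate and their pool and 2 IDR lists (3994 optimal and 2676 conservative peaks). Output types and builds come from the description files deposited with the lists. Each deposited peak has a signal. The deposited mm9 lists add a −log10 p-value and a q-value. The deposited mm10 lists give −log10 q, and the deposited IDR lists a score. How replicates were combined on mm9, the peak caller, the aligner and the scaling are not given in the sources used here. No counts were used, so depth is unknown. The control experiment was not analysed here. The sequences of 3 peaks are not reported here.

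Peaks were assigned to a gene by centres within 50 kb of any of its transcript starts. On mm9 all transcripts of 22225 protein-coding genes in GENCODE M1 (NCBIM37) were used, without the mitochondrial ones. On mm10 one start per gene was taken from RefSeq gene bodies (GRCm38, 21099 genes). Strands came from the RefSeq promoter table or, failing that, GENCODE M1. These sources differed for 41 of 14613 genes, and 801 genes without a strand were left out. Overlap means at least 1 bp. Elements were searched on both strands of the mm9 reference with Python 3.11.15 and pysam 0.24.0, and the searches were tested on simulated data. The relaxed entries named were those ranked within 20000 in the pool, those within 1 kb of a start at that rank in any relaxed list, and the strongest of each replicate. All entries within 2 kb of the Dppa5a start were also looked up, which gave the one 1.45 kb before it.

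The genes, lists and rules were chosen with earlier results of these data known. The octamer with 1 mismatch, the relaxed entries and the groups of peaks were added after the values were seen. Named genes were the 4 genes, their protein-coding neighbours within 50 kb, members of 5 lists (39 of 41 entries matched to the annotation), and up to 5 genes with as many peaks as Dppa5a and the nearest strongest signal. The last rule was tied between 8 genes, and all are named.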

Additional observations from a re-analysis of the deposited data

How the results depend on the processing

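The whole-series count of 4 peaks near Dppa5a and Ooep was also found within 10 kb and 100 kb, and was 3 with −log10 p of at least 10 and 3 by nearest start. The separately deposited replicate lists gave 1 to 4 peaks, the lower in that of replicate 1. No peaks were called again without a replicate, and these lists also differ in length. Near Dppa2 and Dppa4 the count was 0 within 10 kb and 100 kb. In the replicate lists it was 0 to 1, the 1 being the Dppa4 peak of replicate 2. The strongest Dppa5a peak was in the top 6.36% by signal and 9.34% by −log10 p. The replicate lists gave 6.31% to 50% by signal, the latter in the shorter replicate 1 list. No such rank exists for Dppa2 and Dppa4, which had no whole-series peak. Of the Dppa5a peaks, 2 held an element when the composite was allowed 3 mismatches, against 0 with 1 or 2 mismatches. Under the strict rules 0 held one within 100 bp of the centre, whereas both matches with 3 mismatches lay within that distance. With 1 mismatch in the octamer, 1 peak held a match. The share of genes near a peak was 8.66% within 10 kb, 43.3% within 100 kb and 8.16% to 30.1% in the replicate lists. The other alternatives tried left the counts of peaks in both replicate lists (1) and of mm10 optimal peaks (3 and 0) as they were. No paired analysis was possible because the labels give 1 group. With no read counts, the depth limits could not be set. Of the 3 whole-series peaks missing from the replicate 1 mm9 list, the far downstream and proximal upstream sites had mm10 counterparts in its relaxed list, at ranks 2542 and 4147. By rank in replicate 1 alone, the proximal upstream site hardly differed from entries near Ooep and Dppa4, at ranks 4317 and 4435. Replicate 2 listed neither of those entries.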
